A study of Mus musculus with 7 samples.

Results

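The transcripts described here are the 37 genes of the mouse mitochondrial genome, taken as every row of the deposited count table whose chromosome is MT. They are 37 of 55367 rows: 13 genes for proteins of the respiratory chain, 2 ribosomal RNA genes and 22 transfer RNA genes. Expression was measured by bulk RNA-seq in brain samples of C57BL/6J mice labelled P90, 3 libraries with the treatment label noCRS and 4 with the label CRS. The labels name the cells as mPFC-LHB projection neurons, that is, neurons with their bodies in the medial prefrontal cortex and axons to the lateral habenula, and the title of the series speaks of chronic stress, a neural circuit and depression. The labels give no genotype or allele beyond the strain, and they do not spell out CRS. The sources used here give neither how the neurons were marked and collected nor whether each library came from its own animal. P-values therefore reflect the spread among these libraries alone, and that spread may be technical.

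The mitochondrial genome is a small circle that is transcribed from both strands into long precursors. The tRNAs lie between most of the other genes, and their excision releases the mRNAs and rRNAs. Proteins made from nuclear genes polyadenylate and degrade these RNAs and take part in translating the mRNAs. The 13 proteins are subunits of complexes I, III and IV and of ATP synthase, which nuclear-encoded subunits complete, and the rRNAs and tRNAs serve only the ribosomes inside the organelle. Neurons rely heavily on this respiration for firing and synaptic transmission. Stretches of mitochondrial DNA have also been copied into nuclear chromosomes, where they lie as pseudogenes.

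Such a copy covers a large part of the genes described here, so its sequences are shown first. On GRCm38, 7 pseudogenes of chromosome 1 follow the order of the mitochondrial genes on the minus strand, over chr1:24611535-24616197. They match stretches of MT:6390-11042, a span of 4653 bases, of which 4136 aligned to a pseudogene, at 99.7 to 100% identity. The distances between neighbouring pseudogenes were those between the mitochondrial genes, apart from 1 base in 1 gap (74 on chromosome 1 and 73 on MT). The sequence between the pseudogenes, where most of mt-Atp8 and the tRNA genes of the span would lie, was not analysed here, so these genes are placed in the span by position alone. By position, the span holds 6 mRNA genes whole (mt-Co2, mt-Atp8, mt-Atp6, mt-Co3, mt-Nd3 and mt-Nd4l), 5 tRNA genes whole, 31.3% of mt-Co1 and 63.6% of mt-Nd4. The starts of mt-Atp6, an ATP synthase subunit, and of its copy Gm10925 are shown because they are identical, as are all 678 aligned bases. The stretches of mt-Nd3, a complex I subunit, and of mt-Co1, the catalytic subunit of complex IV, are shown for their differences. Each holds the only difference within the bases aligned to its chromosome 1 copy, T3C for Gm28438 and A1066T for Gm29216. Gm29216 aligns only from its base 10. Positions count from 1 at the 5′ end of the mitochondrial gene, capitals mark the differing base, and the sequences are those of GENCODE M21 transcripts on GRCm38.
mt-Atp6, MT:7927-7986, plus strand: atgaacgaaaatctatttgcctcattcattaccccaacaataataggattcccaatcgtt
Gm10925, chr1:24614592-24614651, minus strand: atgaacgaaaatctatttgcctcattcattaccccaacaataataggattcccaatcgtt
mt-Nd3, MT:9459-9518, plus strand: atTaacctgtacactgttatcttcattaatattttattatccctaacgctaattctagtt
Gm28438, chr1:24613060-24613119, minus strand: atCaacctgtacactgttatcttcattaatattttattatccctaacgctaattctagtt
mt-Co1, MT:6390-6449, plus strand: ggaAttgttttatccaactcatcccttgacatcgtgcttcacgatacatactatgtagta
Gm29216, chr1:24616129-24616188, minus strand: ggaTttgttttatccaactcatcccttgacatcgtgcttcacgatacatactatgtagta

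A read from such a stretch has 2 equally good or nearly equal places in the nuclear and mitochondrial sequence. The sources used here do not give how reads with several places were counted. In windows of 100 bases, 99.5% of mt-Co2, 99.5% of mt-Atp6, 99.9% of mt-Co3, 97.6% of mt-Nd3 and 98.5% of mt-Nd4l were also found in a nuclear transcript of the annotation. The share was 60.8% for mt-Nd4, 30.8% for mt-Co1 and 3.19% for mt-Nd2, and 0 for mt-Nd1, mt-Nd5, mt-Nd6, mt-Cytb and both rRNAs. In windows of 50 bases it was 51.1% for mt-Co1, 8.19% for mt-Nd2, 7.61% for mt-Nd5 and 1.04% for mt-Rnr2, and still 0 for mt-Nd1, mt-Nd6, mt-Cytb and mt-Rnr1. The sources used here do not give the read length. mt-Atp8 had a share of 0 because no annotated transcript covers its place on chromosome 1, although the 233 bases between the neighbouring pseudogenes are as many as on MT. Chromosome 2 holds 3 further pseudogenes of 95.9 to 97.6% identity, to mt-Nd2, mt-Co1 and mt-Co2, and chromosome 13 holds Gm4076, with 95.2% identity to 954 bases of mt-Nd5. Values of the genes in the span are uncertain for this reason.

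The libraries held 28677703 to 39965667 counts, 10 of 21 nuclear chromosomes had shares of counts that did not overlap between the groups, and 410 of 17833 tested genes passed an adjusted p of 0.05 (edgeR quasi-likelihood test, Benjamini-Hochberg), 369 of them higher in CRS (2.07% of tested genes). Markers of myelinating oligodendrocytes, oligodendrocyte precursors and astrocytes were abundant, and 5 of 8 precursor markers were called lower in CRS. The 12 markers listed for excitatory neurons include genes of neurons in general. Their summed level was 153 to 303.0 counts-per-million units (CPM) in noCRS and 3052 to 4453 in CRS, and 6 of them were called higher. None of the 12 was at 0 in every noCRS library. Myelinating oligodendrocyte markers summed to 31946 to 36922 CPM in noCRS and 26303 to 51815 in CRS, far above the neuronal sums, and 0 of 8 were called by edgeR, 0 by DESeq2 and by voom, with 0 at an unadjusted p under 0.05. Oligodendrocyte precursor markers summed to 2675 to 3050 CPM in noCRS and 1530 to 1944 in CRS, with 5 of 8 called lower. Astrocyte markers summed to 10753 to 14007 and 6331 to 12914 CPM, inhibitory neuron markers to 36.1 to 43.8 and 161 to 677, and microglial markers to 89.2 to 133 and 84.2 to 123. Endothelial and mural markers summed to 65.8 to 190 CPM in noCRS and 155 to 543 in CRS. Blood markers were at 0 in all noCRS libraries and summed to at most 16.2 CPM in CRS. The part of cell makeup in the results below was not tested, and in bulk samples fewer cells of a type and less RNA per cell cannot be told apart.

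The mitochondrial genome supplied under 1% of the counts in every library, and this share did not separate the groups. It was 0.677, 0.759 and 0.633% of counts in noCRS replicates 1 to 3 and 0.670, 0.664, 0.653 and 0.679% in CRS replicates 1 to 4. The means were 0.690% ± 0.0642 (SD, n = 3) and 0.666% ± 0.0108 (SD, n = 4). All 4 CRS values lay inside the noCRS range.

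The classes of RNA within that share did not move alike. The 13 mRNA genes took 0.527, 0.522 and 0.438% of counts in noCRS and 0.538, 0.530, 0.502 and 0.535% in CRS, so that the groups overlapped around means of 0.496% ± 0.0503 and 0.526% ± 0.0165 (SD). The 2 rRNA genes took 0.143, 0.229 and 0.189% in noCRS and 0.120, 0.125, 0.143 and 0.133% in CRS. The rRNA means were 0.187% ± 0.0432 and 0.130% ± 0.0101 (SD). The groups met almost exactly, with the lowest noCRS library at 0.14314% and the highest CRS library at 0.14284%. Set against mRNA, rRNA counts were 27.1 to 44.0 per 100 mRNA counts in noCRS and 22.2 to 28.5 in CRS, and here the groups overlapped.

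The 22 tRNA genes took the smallest share. It was 0.00698, 0.00829 and 0.00663% of counts in noCRS and 0.0127, 0.00864, 0.00847 and 0.0114% in CRS, 1.41 times as high on average (0.00730% ± 0.000873 against 0.0103% ± 0.00207, SD). Every CRS library lay above every noCRS library, by a margin of 0.00829 against 0.00847% at the closest. As a share of all mitochondrial counts, tRNA was 1.03 to 1.09% in noCRS and 1.30 to 1.89% in CRS, again without overlap. These sums over genes were compared as values and ranges only. Counts of a tRNA gene can come from cut tRNA or from uncut precursor, and these were not told apart here.

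**Figure D1:**
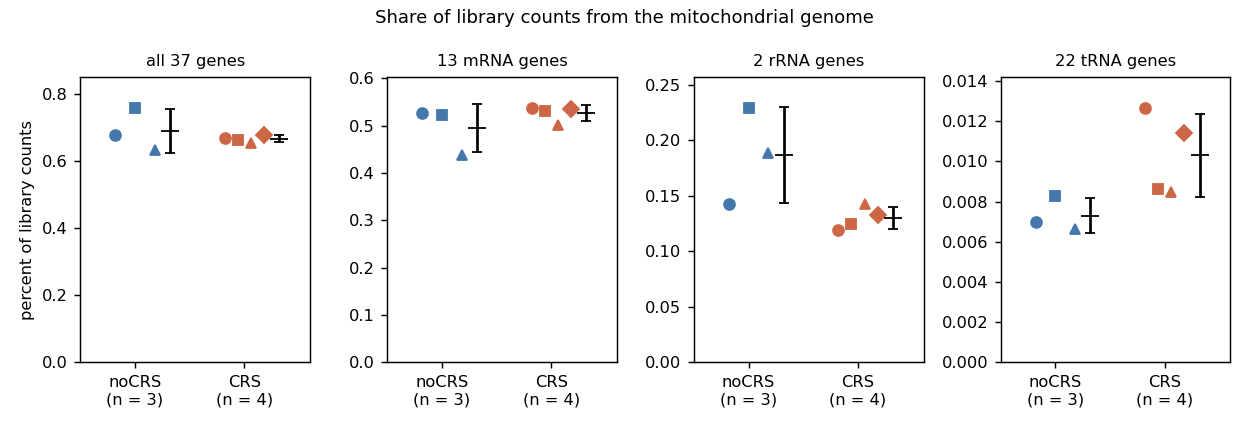
Percent of each library's counts from all 37 mitochondrial genes and from the mRNA, rRNA and tRNA genes (y axes from 0, each with its own scale), for noCRS (blue, n = 3) and CRS (orange, n = 4). Points are libraries, with one marker shape per replicate number, and black bars are the mean ± SD. The total and the mRNA share overlap, while the tRNA share lies higher in all 4 CRS libraries.

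No mitochondrial gene passed the test. Of the 37 genes, 32 passed the filter on low counts, and 0 of these were called by the edgeR quasi-likelihood test with Benjamini-Hochberg adjustment over all tested genes, against 2.3% of tested genes called in either direction. An unadjusted p under 0.05 was reached by 4 of the 32 (12.5%), mt-Nd1, mt-Co1, mt-Rnr2 and mt-Tl1, close to the 13.6% of all tested genes that reached it. DESeq2 called 2, mt-Nd1 and mt-Rnr2, and limma-voom called 0. The groups did not overlap for 6 of the 32 (mt-Nd1, mt-Co1, mt-Tl1, mt-Ti, mt-Tq and mt-Tp), all higher in CRS, against 16.9% of tested genes in either direction 10.1% in that direction and 6.74% in the other. The log2 fold change was positive for 23 of the 32, with a median of 0.33, against 49.2% of all tested genes and a median of -0.02. The 5 genes not tested were the tRNA genes mt-Tv, mt-Td, mt-Tk, mt-Tr and mt-Ts2.

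**Figure D2:**
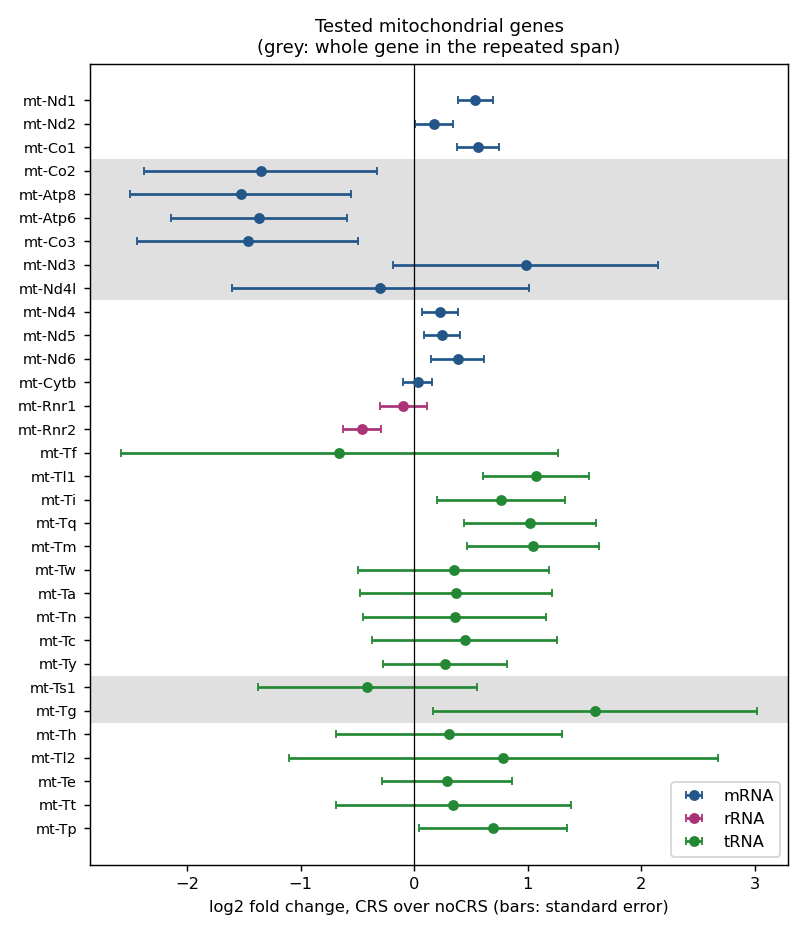
Log2 fold change of CRS over noCRS (x axis) for the 32 tested mitochondrial genes (y axis), with bars for the standard error, from the edgeR fit of all genes. Grey bands mark genes that lie whole in the span repeated on chromosome 1. 8 of 13 mRNA genes and 15 of 17 tRNA genes are positive and both rRNA genes are negative, with no gene past an adjusted p of 0.05.

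Complex I takes electrons from NADH, and 7 of its subunits are mitochondrial genes. mt-Nd1, a membrane subunit at the junction with the peripheral arm, stood at 487, 472 and 360.5 TMM-normalised CPM in noCRS and at 668, 670.2, 600.1 and 617 in CRS. Its 4 CRS values were all above its noCRS values, with means of 439.8 ± 69.0 and 639 ± 35.7 (SD). The log2 fold change was 0.54 ± 0.15 (SE), with an adjusted p of 0.140 by edgeR's quasi-likelihood test and of 0.0163 by DESeq2. Over the alternatives the adjusted p of mt-Nd1 ran from 0.0163 to 0.398.

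The other complex I mRNAs outside the span differed less. mt-Nd2, a proton-pumping subunit, stood at 184, 266 and 241 CPM in noCRS and 240, 250, 262 and 290.5 in CRS, a log2 fold change of 0.18 with overlapping groups. mt-Nd5, the subunit with the long lateral helix, stood at 260.4, 317 and 304 CPM in noCRS and 330.4, 313, 330.3 and 420.1 in CRS, a log2 fold change of 0.25 ± 0.16 (SE). mt-Nd6, the only protein gene on the minus strand, stood at 62.4, 85.8 and 71.8 CPM in noCRS and 78.1, 84.0, 91.6 and 129 in CRS, a log2 fold change of 0.39 ± 0.23 (SE). CRS replicate 4 was the highest library for both mt-Nd5 and mt-Nd6, and the groups overlapped for both. These 2 genes overlap by 14 bases on opposite strands, and the library kit does not mark strand. Counts of a gene can therefore hold RNA of the opposite strand over its whole length. This limit applies to all 37 mitochondrial genes, including the 9 on the minus strand, such as mt-Nd6, mt-Te, mt-Tq and mt-Tp. mt-Nd4, another proton-pumping subunit that lies partly in the span, stood at 368, 340.3 and 257 CPM in noCRS and 384, 389, 384 and 353 in CRS, a log2 fold change of 0.23. The adjusted p of mt-Nd2, mt-Nd4, mt-Nd5 and mt-Nd6 was between 0.580 and 0.797 (edgeR quasi-likelihood test).

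Complex III passes electrons on to cytochrome c, and its subunit cytochrome b is encoded by mt-Cytb. This was the most abundant mitochondrial mRNA, at 2427, 2204 and 1949 CPM in noCRS and 2260, 2214, 2218 and 2280 in CRS. The CRS values lay inside the noCRS range. The log2 fold change was 0.03 ± 0.13 (SE, adjusted p = 0.962, edgeR quasi-likelihood test), and its sign turned under median-ratio (-0.00040), total count (-0.12) and upper quartile (-0.02) scaling.

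In complex IV, which reduces oxygen, mt-Co1 encodes the subunit with the haem a groups. It stood at 1275, 993 and 816 CPM in noCRS and at 1477, 1794, 1416 and 1392 in CRS, with no overlap. The means were 1028 ± 232 and 1520 ± 186 (SD), and the log2 fold change was 0.56 ± 0.19 (SE) with an adjusted p of 0.200 (edgeR quasi-likelihood test). mt-Co2 and mt-Co3, the other mitochondrial subunits of complex IV, lie in the span and were far lower, at 0.904 to 7.21 CPM and 1.18 to 15.4 CPM over the 7 libraries.

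Levels per gene length were lower for the mRNA genes inside the span than for those outside or partly in it. Per kb of gene and averaged over all libraries, mt-Cytb stood at 1942 CPM, mt-Co1 at 847, mt-Rnr2 at 708, mt-Nd1 at 578 and mt-Rnr1 at 429. Then came mt-Nd4 at 257, mt-Nd2 at 239, mt-Nd5 at 178 and mt-Nd6 at 166 CPM per kb. All 6 mRNA genes inside the span were below these, with mt-Atp8 at 63.2, mt-Atp6 at 37.6, mt-Co3 at 8.67, mt-Co2 at 4.46, mt-Nd3 at 3.38 and mt-Nd4l at 1.05 CPM per kb. Neighbours in this order such as mt-Nd4 and mt-Nd2, or mt-Nd5 and mt-Nd6, lay within the spread of each other. mt-Co2 encodes a core subunit of the same enzyme as mt-Co1 and is read from the same precursor.

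**Figure D3:**
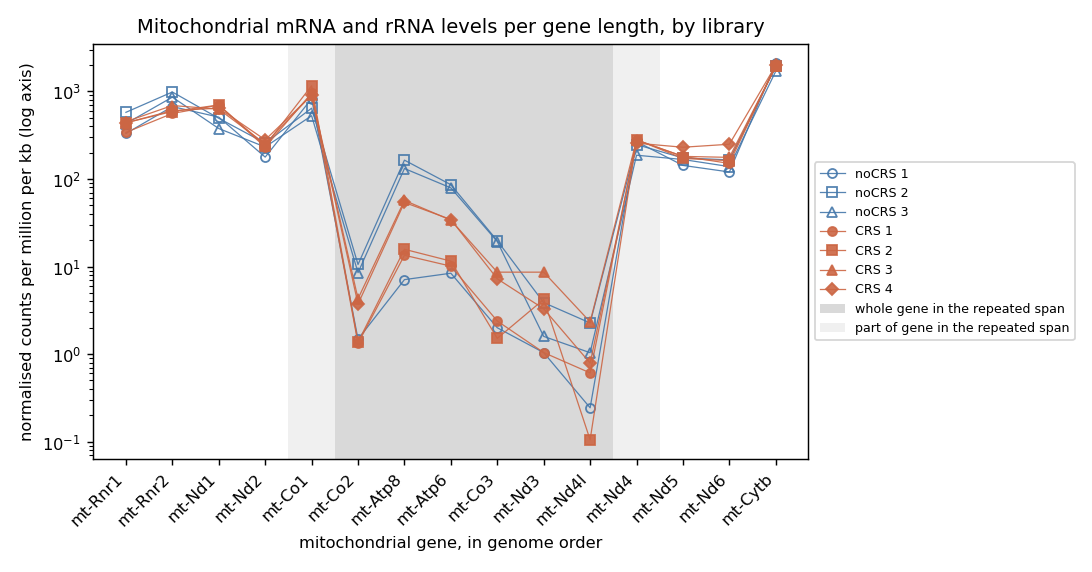
TMM-normalised CPM per kb of gene length (log axis) for the 2 rRNA and 13 mRNA genes in genome order (x axis), with one line per library, noCRS blue with open markers and CRS orange with filled markers. Dark grey marks genes that lie whole in the span repeated on chromosome 1 and light grey those that lie partly in it. The 6 genes inside the span are lower than all others in each library and spread most between libraries.

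The 6 mRNA genes of the span separated the libraries, but not by group. Their summed counts were 422, 3640 and 3332 in noCRS and 429, 471, 1457 and 1693 in CRS, or 10.6, 127 and 109 and 12.8, 13.6, 45.04 and 42.6 CPM of the library totals. noCRS replicates 2 and 3 were high, CRS replicates 3 and 4 intermediate, and noCRS replicate 1 and CRS replicates 1 and 2 low. This is the order of the sum, and mt-Nd3 did not follow it. Its counts were 15, 42 and 18 in noCRS and 12, 47, 91 and 44 in CRS. For mt-Atp6 the values were 5.71, 58.5 and 53.8 TMM-normalised CPM in noCRS and 6.87, 7.85, 23.0 and 23.4 in CRS. The fitted log2 fold changes were -1.35 for mt-Co2, -1.53 for mt-Atp8, -1.36 for mt-Atp6 and -1.47 for mt-Co3, with standard errors of 0.78 to 1.02. mt-Nd3 and mt-Nd4l, both complex I subunits with 269 and 71 counts over all libraries, had log2 fold changes of 0.98 and -0.30, the latter positive without noCRS replicate 2. None of the 6 had an adjusted p under 0.543 (edgeR quasi-likelihood test), and the groups overlapped for all 6. mt-Atp8 and mt-Atp6 share 43 bases, so their counts are not independent.

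The chromosome 1 pseudogenes followed the same order of libraries. They held 321, 2416 and 2288 counts in noCRS and 392, 417, 1112 and 1368 in CRS. Of 8 listed copies on chromosomes 1 and 2, 7 were tested and all had a negative log2 fold change (median -1.17), with 0 called by edgeR, DESeq2 or voom and 0 at an unadjusted p under 0.05. For 3 mRNA genes that match a copy over nearly their whole length without a difference, gene and copy had counts of the same order in each library. mt-Co3 and its copy Gm28437, identical over 783 bases, had 65 and 71, 482 and 443, and 491 and 451 in noCRS, and 62 and 80, 38 and 50, 205 and 187, and 218 and 236 in CRS. mt-Atp6 had 1.21 to 1.73 times the counts of Gm10925. mt-Co2 had 0.811 to 2.21 times the counts of Gm28661, with which it is identical over 681 bases. mt-Nd4l is likewise identical to Gm10222 over 294 bases, but held only 1 to 21 counts per library, beside 0 to 17 of the copy. mt-Nd3, which has 1 difference from its copy Gm28438, held 12 to 91 counts per library, where the copy held 1 to 8. Per kb, the 5 mRNA genes outside the span had 184, 15.7 and 15.6 times the counts of the 6 inside in noCRS, and 151, 132, 39.9 and 46.4 times in CRS.

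Processed pseudogenes of the whole annotation, most of which derive from nuclear mRNAs, gave nearly the same order and were looked at after these values were seen. They took 0.0991, 0.175 and 0.178% of counts in noCRS and 0.0996, 0.113, 0.130 and 0.128% in CRS. Here too noCRS replicates 2 and 3 were the highest and noCRS replicate 1 the lowest. The cause of this shared order was not tested.

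**Figure D4:**
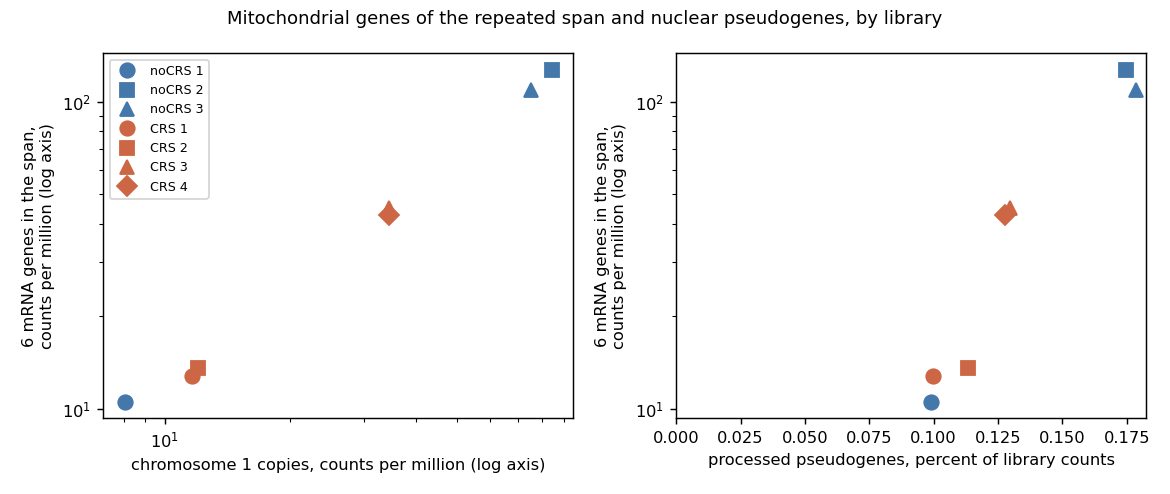
Summed CPM, of library totals, of the 6 mitochondrial mRNA genes inside the span (y axes, log) against those of the 7 chromosome 1 pseudogenes (left, log axis) and against the percent of library counts in processed pseudogenes (right), 1 point per library. noCRS replicates 2 and 3 lie highest on both axes, CRS replicates 3 and 4 between, and noCRS replicate 1 with CRS replicates 1 and 2 lowest.

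Within the mitochondrial mRNA, where library totals and scaling drop out, 3 of the 13 genes had shares that did not overlap between the groups, mt-Cytb, mt-Nd1 and mt-Co1. By CPM, a different measure, the groups did not overlap for 16.9% of all tested genes. mt-Cytb made up 47.8, 46.0 and 47.5% of the 13 genes' counts in noCRS and 41.5, 38.7, 41.5 and 41.3% in CRS. All 4 CRS libraries were lower, with means of 47.1% ± 0.995 and 40.7% ± 1.37 (SD), a difference of -6.39 percentage points. Shares of the 13 genes sum to the whole, so they are not independent, and higher shares of some genes lower those of others. The CPM of mt-Cytb overlapped between the groups, with a log2 fold change of 0.03. mt-Nd1 made up 9.59, 9.84 and 8.79% in noCRS and 12.3, 11.7, 11.2 and 11.2% in CRS, without overlap, with means of 9.41% ± 0.551 and 11.6% ± 0.510 (SD). mt-Co1 made up 25.1, 20.7 and 19.9% in noCRS and 27.1, 31.3, 26.5 and 25.2% in CRS. The mt-Co1 groups were apart by 25.13 against 25.20% at the closest, and overlapped when counts were taken per kb.

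Without the genes of the span, the difference between group means was -5.25 percentage points for mt-Cytb and 4.27 for mt-Nd1. Over the 5 mRNA genes outside the span, a choice made after seeing the data, mt-Cytb made up 70.9, 65.9 and 66.6% in noCRS and 63.2, 62.7, 63.3 and 61.0% in CRS. mt-Nd1 made up 14.2, 14.1 and 12.3% in noCRS and 18.7, 19.0, 17.1 and 16.5% in CRS. Neither gene's groups overlapped. As a ratio per kb, mt-Nd1 stood at 0.240, 0.256 and 0.221 of mt-Cytb in noCRS and at 0.353, 0.362, 0.323 and 0.323 in CRS. Shares and ratios were compared as ranges of 3 against 4 libraries, with no test.

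**Figure D5:**
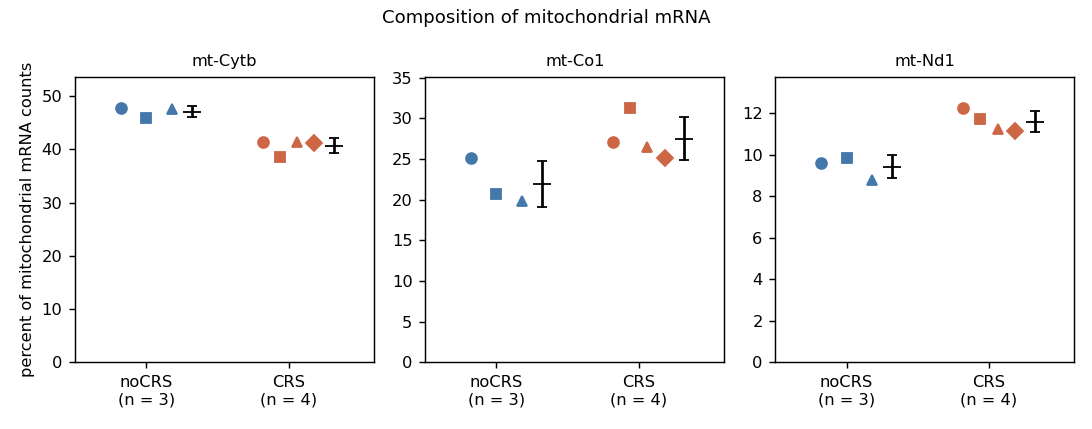
Percent of the counts of the 13 mitochondrial mRNA genes taken by mt-Cytb, mt-Co1 and mt-Nd1 (y axes from 0, each with its own scale) in noCRS (blue, n = 3) and CRS (orange, n = 4). Points are libraries and black bars the mean ± SD. The share of mt-Cytb is lower in all 4 CRS libraries (38.7 to 41.5% against 46.0 to 47.8%) and that of mt-Nd1 higher (11.2 to 12.3% against 8.79 to 9.84%). Shares of the 13 genes are not independent.

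The rRNAs of the mitochondrial ribosome lie next to each other at the start of the plus strand precursor, just before mt-Nd1. The large subunit rRNA, mt-Rnr2, stood at 1061, 1558 and 1361 CPM in noCRS and 886, 933, 1091 and 953 in CRS. The groups overlapped through CRS replicate 3, which was above noCRS replicate 1. The means were 1327 ± 250 and 966 ± 88.4 (SD), and the log2 fold change was -0.46 ± 0.17 (SE), with an adjusted p of 0.236 by edgeR's quasi-likelihood test and of 0.0316 by DESeq2. Its adjusted p ran to 0.531 over the alternatives. The small subunit rRNA, mt-Rnr1, stood at 316, 551 and 409 CPM in noCRS and 325, 418, 431 and 418 in CRS, a log2 fold change of -0.10 ± 0.21 (SE, adjusted p = 0.921, edgeR quasi-likelihood test) that turned positive without noCRS replicate 2 (0.14). Per kb, mt-Rnr2 was 2.03, 1.71 and 2.01 times mt-Rnr1 in noCRS and 1.64, 1.35, 1.53 and 1.38 times in CRS, without overlap. Against mt-Nd1 the per kb ratio of mt-Rnr2 was 1.32, 1.996 and 2.28 in noCRS and 0.802, 0.842, 1.10 and 0.935 in CRS, also without overlap. Against mt-Cytb it was 0.316, 0.511 and 0.505 in noCRS and 0.283, 0.305, 0.356 and 0.302 in CRS, and here the groups overlapped.

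Between mt-Rnr2 and mt-Nd1 lies mt-Tl1, a leucine tRNA, which had the highest count of all tRNA genes summed over the 7 libraries. In noCRS replicates 2 and 3 it was below mt-Te and below 1 other tRNA gene, mt-Tm in replicate 2 and mt-Ty in replicate 3. Its sequence is shown beside that of the lysine tRNA mt-Tk, which lies in the span between mt-Co2 and mt-Atp8 and had 0 counts in all 7 libraries. A count of 0 allows up to 0.0751 to 0.105 CPM, taking 3 counts of each library's total and covering counting error only.
mt-Tl1, MT:2676-2750, plus strand: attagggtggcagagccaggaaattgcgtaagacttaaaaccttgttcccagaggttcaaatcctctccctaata
mt-Tk, MT:7700-7764, plus strand: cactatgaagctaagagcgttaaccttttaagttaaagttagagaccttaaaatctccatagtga

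mt-Tl1 stood at 13.8, 8.17 and 6.00 CPM in noCRS and 24.8, 19.0, 15.3 and 19.7 in CRS. The groups did not overlap, and the log2 fold change was 1.08 ± 0.47 (SE) with an adjusted p of 0.363 (edgeR quasi-likelihood test). Its neighbour downstream of mt-Nd1 is a cluster of 3 tRNA genes for isoleucine, glutamine and methionine. mt-Ti stood at 6.84, 5.48 and 5.60 CPM in noCRS and 10.4, 14.0, 9.10 and 7.13 in CRS, and mt-Tq, on the opposite strand, at 3.83, 7.15 and 5.38 and at 15.6, 8.63, 9.20 and 10.9. Neither overlapped between groups, and their log2 fold changes were 0.77 and 1.02. By position, mt-Ti shares 2 bases with mt-Nd1 and 3 with mt-Tq. mt-Tm had a log2 fold change of 1.05 with overlapping groups, at 4.43, 8.97 and 5.57 CPM in noCRS and 20.1, 8.35, 9.76 and 14.1 in CRS. The adjusted p of these 3 was between 0.530 and 0.691 (edgeR quasi-likelihood test).

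The tyrosine and glutamate tRNAs, mt-Ty and mt-Te, completed the 6 tRNA genes of highest mean CPM. Both differed less, with log2 fold changes of 0.28 and 0.29 and overlapping groups. mt-Te, which lies between mt-Nd6 and mt-Cytb, had its highest value in CRS replicate 4, at 19.4 CPM, where mt-Nd6 was also highest. mt-Tp, the proline tRNA, was the fourth tRNA gene without overlap, at 2.40 to 7.18 CPM in noCRS and 8.01 to 9.97 in CRS, and is named after its values were seen. Over the 17 tested tRNA genes the median log2 fold change was 0.37, and 15 of them were positive. The 5 tRNA genes inside the span held 52 to 108 counts per library in sum, or 1.46 to 4.55% of tRNA counts.

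The shares of tRNA counts from 2 clusters of tRNA genes overlapped between the groups. The 5 genes for tryptophan, alanine, asparagine, cysteine and tyrosine (mt-Tw, mt-Ta, mt-Tn, mt-Tc and mt-Ty) gave 23.7, 25.0 and 42.3% of tRNA counts in noCRS and 22.7, 24.7, 23.0 and 26.0% in CRS. noCRS replicate 3 stood alone at the top. The cluster of mt-Ti, mt-Tq and mt-Tm gave 22.5, 28.4 and 26.6% in noCRS and 36.0, 33.2, 31.1 and 27.2% in CRS. Only CRS replicate 4 lay within the noCRS range.

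The nuclear-encoded partners of the mitochondrial subunits mostly had positive log2 fold changes. Of the 13 mitochondrial mRNA genes, 8 were positive. These were all 7 outside or partly in the span and 1 of the 6 inside it, where 5 were negative. The split by span was made after the values were seen, and the sign of mt-Cytb depended on the scaling. Of 252 tested nuclear genes on all the lists, 3 were called (1.19%), below the 2.3% of all tested genes. These lists hold ribosomal proteins, tRNA synthetases, other factors and 7 nuclear copies besides the respiratory subunits. The pooled share is therefore not that of the respiratory subunits, where all 3 calls fell. The calls were 1 of 37 complex I and 2 of 16 ATP synthase genes, with 0 of 9 for complex III and 0 of 11 for complex IV. All 3 were higher in CRS: Atpif1, the inhibitor of ATP synthase, Atp5g1, which encodes subunit c of its rotor, and Ndufa10, an accessory subunit of complex I. Atpif1 stood at 131, 155 and 140 CPM in noCRS and 276, 355, 262 and 275 in CRS, a log2 fold change of 1.04 ± 0.17 (SE, adjusted p = 0.0195, edgeR quasi-likelihood test). Atp5g1 stood at 118, 112 and 96.6 CPM in noCRS and 209, 237, 179 and 183 in CRS, a log2 fold change of 0.89 ± 0.17 (SE, adjusted p = 0.0360, edgeR quasi-likelihood test). Ndufa10 stood at 79.1 to 108 CPM in the 3 noCRS libraries and at 235, 206, 146 and 206 in CRS, a log2 fold change of 1.05 ± 0.21 (SE, adjusted p = 0.0439, edgeR quasi-likelihood test). All 3 were without overlap. The Atp5g1 call was lost whichever library was left out, the Ndufa10 call without any library but CRS replicate 3, and the Atpif1 call without any of the noCRS libraries, and over these fits 0 to 2 of the nuclear genes were called.

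By complex, 36 of 37 nuclear complex I genes had a positive log2 fold change (median 0.38), as did 9 of 9 for complex III (median 0.53), 11 of 11 for complex IV (median 0.52) and 15 of 16 for ATP synthase (median 0.44). The median over all tested genes was -0.02. In the same order, 14, 7, 8 and 8 of these nuclear genes had an unadjusted p under 0.05 (edgeR quasi-likelihood test). Among all tested genes 13.6% did. The groups did not overlap for 16, 7, 9 and 10 of them, beside 16.9% of all tested genes. The mitochondrial genes had medians of 0.25 for complex I, 0.03 for complex III, with 1 gene, -1.35 for complex IV and -1.44 for ATP synthase. With the genes inside the span left out, a choice made after seeing the data, complex I stayed at 0.25. Complex IV, then mt-Co1 alone, stood at 0.56. Both mitochondrial ATP synthase genes, and mt-Co2 and mt-Co3 of complex IV, lie in the span. Among the nuclear genes, Cox4i1, a regulatory subunit of complex IV, stood at 293, 312 and 289 CPM in noCRS and 523, 533, 408 and 460.1 in CRS, a log2 fold change of 0.69 (adjusted p = 0.0547, edgeR quasi-likelihood test). Uqcrc1, a core subunit of complex III, stood at 682, 521 and 561 and at 726, 991, 775 and 809 CPM, a log2 fold change of 0.49, and Atp5b, the catalytic beta subunit, at 540.5, 510.3 and 571 and at 980.0, 694, 799 and 731 CPM, a log2 fold change of 0.57. The excitatory neuron marker sums given above differed between the groups in the same direction, and their part in these values was not tested.

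Nuclear genes that act on mitochondrial DNA and RNA had no call in any list by the edgeR quasi-likelihood test. Their counts at an unadjusted p under 0.05 stand beside the 13.6% of all tested genes given above. Of 18 genes for mitochondrial transcription and DNA replication, 6 were positive (median -0.41), 2 had an unadjusted p under 0.05, and DESeq2 and voom each called 1. Polg, the mitochondrial DNA polymerase, stood at 49.6, 62.5 and 80.4 CPM in noCRS and 8.47, 43.9, 16.3 and 11.5 in CRS, a log2 fold change of -1.68 with an adjusted p of 0.197 (edgeR quasi-likelihood test). Without CRS replicate 2, where Polg was highest among the CRS libraries, it was called, at a log2 fold change of -2.43. Polrmt, the RNA polymerase that transcribes the mitochondrial genome, stood at 12.6, 8.97 and 2.12 CPM and at 1.54, 7.82, 1.62 and 1.87, and Tfam, which packages mitochondrial DNA and starts its transcription, at 35.4, 18.6 and 15.4 and at 30.7, 29.4, 45.7 and 34.9. The groups overlapped for both. Polrmt and Tfam are named after their values were seen.

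Of 34 genes for mitochondrial RNA processing, stability and decay, 20 were positive (median 0.23), 3 had an unadjusted p under 0.05, and DESeq2 and voom called 0. Trnt1, which adds the CCA end to tRNAs, stood at 163, 91.7 and 130.1 CPM in noCRS and 205, 307, 194 and 208 in CRS, without overlap, a log2 fold change of 0.84 with an adjusted p of 0.162 (edgeR quasi-likelihood test). Trnt1 serves cytosolic tRNAs as well. Lrpprc, which stabilises mitochondrial mRNAs, stood at 33.2, 19.0 and 32.6 CPM in noCRS and 79.9, 26.5, 50.9 and 46.3 in CRS. Its partner Slirp stood at 90.01, 88.7 and 84.1 and at 65.0, 69.5, 97.9 and 89.6 CPM. Both overlapped between the groups and are named after their values were seen.

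Mitochondrial ribosomal proteins, the partners of mt-Rnr1 and mt-Rnr2, had 55 of 79 genes positive (median 0.15), 4 with an unadjusted p under 0.05, 2 called by DESeq2 and 0 by voom. The most abundant, Mrpl48, stood at 141, 145 and 195 CPM in noCRS and 193, 265, 208 and 184 in CRS, with overlap. Of 13 translation factors 5 were positive (median -0.16), and of 19 tRNA synthetases 7 (median -0.32), with 1 and 2 genes at an unadjusted p under 0.05, 0 and 1 called by DESeq2 and 0 by voom. Of 10 regulators of mitochondrial biogenesis 6 were positive (median 0.10), with 1 at an unadjusted p under 0.05 and 0 called by DESeq2 and voom. Among them Ppargc1a, a coactivator of mitochondrial gene programmes, stood at 63.8, 41.3 and 71.9 CPM in noCRS and 48.2, 14.5, 18.6 and 38.8 in CRS, with overlap.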

How the data were processed

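The authors deposited raw counts per gene, as whole numbers, with exon coordinates on GRCm38. Gene length is the summed exon length per the file headers. The submitters' processing notes name FastQC, HISAT, HISAT2, featureCounts and DESeq2 without versions, while the column names have the default form of another aligner, STAR. Which aligner was used was not settled, and the sources used here do not give how multiply placed reads were handled. Per the labels' protocols, total RNA was taken and libraries were made with a transposase kit.

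Counts were fitted with edgeR 4.0.16 in R 4.3.3 (TMM factors, its default expression filter, no covariate, and the quasi-likelihood test of CRS over noCRS). Adjustment by Benjamini-Hochberg ran over 17833 genes with a threshold of 0.05, and the biological coefficient of variation was 0.919. CPM values are TMM-normalised except where given as CPM of library totals. The smallest chi-square per gene between 2 libraries was 93.6, so none was a duplicate. Nuclear copies were GENCODE M21 transcripts with at least 95% identity over at least 50 bases (blastn 2.17.0), 11 in all. All 37 mitochondrial genes had the coordinates of GENCODE M21. Proteins were not analysed here.

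Named were all mRNA and rRNA genes, the 6 most abundant tRNA genes, and of each nuclear list the 3 most abundant genes and any called. The members and lists were chosen with earlier results of these data known. All listed genes were matched but Mtrfr (13 of 14 translation factors), with Ndufb1 and Atp5f1 matched as Ndufb1-ps and Atp5pb. Alternatives were DESeq2 1.42.0, limma-voom (limma 3.58.1), other scalings, filters, thresholds, depths, denominators and weightings, a replicate block and each library left out. The fit was tested on simulated data.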

Additional observations from a re-analysis of the deposited data

Results flagged for a closer look

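Of 54 values over the 4 CRS libraries, 4 had a library farther from the other 3 than Dixon's 95% critical value allows, where chance flags about 1 in 20 such groups. mt-Rnr1 stood at 325 TMM-normalised CPM in CRS replicate 1, with the others at 418 to 431. mt-Nd4 stood at 353 CPM in CRS replicate 4, below the others at 384 to 389, and mt-Nd5 at 420.1 CPM in the same library, above the others at 313 to 330.4. mt-Cytb made up 38.7% of mitochondrial mRNA counts in CRS replicate 2, with the others at 41.3 to 41.5%. The causes were not tested.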

How the results depend on the processing

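Calls over all genes numbered 410, and 1631 by DESeq2, 639 by limma-voom, 96 and 714 at thresholds of 0.01 and 0.1, and 142 to 352 with each library left out. Of mitochondrial genes, DESeq2 called 2 and every other setting run called 0. The 3 nuclear calls became 20 by DESeq2, 7 by voom, 1 under total count scaling, 1 with the filter of at least 1 count, 0 and 7 at thresholds of 0.01 and 0.1, and 0 to 2 with a library left out. Same replicate numbers did not deviate together (correlations -0.00319 to 0.0228), so no pairing by number was seen. With so few libraries these values cannot exclude a pairing. With the replicate block there were 12 calls in all, 0 mitochondrial and 0 nuclear. Total count scaling moved the median of all genes from -0.02 to -0.17 and the share of higher calls from 90% to 79.5%, and it was 74.9% by DESeq2. With counts per kb the differences in share became 0.0887 (all, from -0.0234), -0.0931 (rRNA, from -0.0571) and 0.118 (tRNA, from 0.0030) percentage points. The sign for all mitochondrial counts thus turned, as it did with a library left out (-0.0519 to 0.0113). For mRNA the difference was 0.0307, and its lowest alternative was -0.0014. The mt-Nd1 difference in composition became 3.08, or 4.27 outside the span. Signs turned for mt-Rnr1 (-0.25 to 0.14 with a library left out), mt-Nd4l (-0.77 to 0.58), mt-Cytb (-0.043 to 0.13, and -0.00040 under median-ratio, -0.12 under total count and -0.023 under upper quartile scaling) and mt-Te (-0.13 to 0.47, and -0.12 with the replicate block). Among nuclear genes they turned for Rexo2 (-0.0078 total count), Hsd17b10 (-0.089 to 0.31 with a library left out, -0.0049 voom, -0.021 total count), Mrpl27 (-0.092 to 0.27, -0.028 total count), Mterf3 (-0.25 to 0.36, 0.025 with the replicate block), Guf1 (-0.63 to 0.068) and Sirt3 (-0.066 to 0.22, -0.0090 voom, -0.052 total count). The causes were not tested. The other 102 alternative values of counts of calls, shares and composition stayed within 1.5 times or 1 SD of the reported ones. For single genes, 985 alternative values kept direction and side of the threshold, 24 lost a call and 13 gained 1. mt-Nd3, mt-Nd4l and most tRNA genes held few counts per library. For those in the span, low depth and the placing of reads cannot be told apart.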
